A study of Mus musculus with 13 samples.

Results

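The genes described here are 10 products by which Sertoli cells are known: the secreted proteins Trf, Cp, Ttr, Clu, Cst9 and Cst12, and the cell markers Tesc, Vnn1, Aard and Mro. They were taken by name, as every array feature that the platform annotation assigns to them, older symbols included. This gave 13 features of 10 genes, out of 62976 features and 20738 named genes. Trf, Cp and Mro had 2 features each, and the other 7 genes had 1.

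Gene expression was measured on 13 mouse arrays in 7 groups, with 1 RNA sample and the dye Cy3 on each array. The study asked how fibroblasts turned into induced embryonic Sertoli cells (ieSC) compare with native Sertoli cells of several ages. TTF-ieSC (2 arrays) were made from tail tip fibroblasts and MEF-ieSC (1 array) from mouse embryonic fibroblasts. Both carried transgenes for 5 regulators of gonad development (Nr5a1, Wt1, Dmrt1, Gata4 and Sox9), and both were labelled as transdifferentiated. Both were kept for 6 months in 2% serum with 2 mg/ml doxycycline, the drug that switches on doxycycline-dependent transgenes. The gonad samples (2 arrays) were whole male gonads of wild type embryos at 14.5 days post coitum (dpc) and were not cultured. The immature Sertoli cells (2 arrays) came from testes at 19 dpc and were cultured for 3 days in 10% serum. The mature Sertoli cells (2 arrays) came from testes of mice aged 8 weeks and were cultured for 7 days in 10% serum. The TTF (2 arrays) carried a tdTomato transgene and were otherwise labelled wild type, and the MEF (2 arrays) were wild type with an empty vector. Both fibroblast types had been grown for 3 passages in 10% serum. No fibroblasts kept like the induced cells but without the factors were among the samples, so the factors, the doxycycline, the serum and the time in culture cannot be told apart. The study planned duplicates for each group, and a further MEF-ieSC array was not analysed here. Tests of MEF-ieSC take its array to vary as much as those of the other groups. Whether 2 arrays of a group came from separate animals or cultures is not given, so the errors and p-values cover no more than the variation among the arrays at hand, possibly technical.

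Sertoli cells line the tubules of the testis and nourish the germ cells behind a barrier that blood proteins do not cross. They therefore make for themselves several proteins that the liver makes for blood, among them the iron carrier transferrin (Trf) and the copper protein ceruloplasmin (Cp). In mouse embryos, genes such as Cst9, Tesc, Vnn1, Aard and Mro are switched on in the supporting cells of the gonad as it becomes a testis.

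Values are signals as the authors deposited them, taken as log2 from their range and the tool that the submitters named. All arrays had been brought to the same distribution, so that each had its median at 7.488, its upper quartile at 10.473 and its brightest feature at 18.872. A signal under the median is called dim here. The table holds no detection flags, so the size of a difference against a dim value rests on an unknown background. The root mean square difference between the 2 arrays of a group ran from 0.167 to 0.310 over the genes tested below, with 1 feature for each. Differences were tested with limma in 1 fit of all 13 arrays, over the 16658 genes that exceeded the median on 2 or more arrays. All 10 genes passed this filter. A gene is called higher or lower at a Benjamini-Hochberg adjusted p under 0.05 over the genes tested.

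Markers gave a mixed picture of the labels. Dhh, a signal sent by Sertoli cells, averaged 15.67 in TTF-ieSC, 15.87 in MEF-ieSC, 15.91 in gonad, 14.30 in immature Sertoli cells, 14.96 in mature Sertoli cells, 9.64 in TTF and 8.62 in MEF. Wt1, one of the 5 transgenes, averaged 16.48 in TTF-ieSC, 16.58 in MEF-ieSC and 15.42 to 15.87 in the native samples, against 6.81 in TTF and 11.77 in MEF. By contrast Cldn11, a component of the Sertoli cell barrier, averaged 8.09 in TTF-ieSC and 8.39 in MEF-ieSC, against 15.47 in immature and 15.61 in mature Sertoli cells. The features for Gata4 averaged 6.92 in both induced groups, against 7.19 in TTF, 9.43 in MEF and 13.51 to 14.16 in the native samples. Sox9 averaged 9.79 in TTF-ieSC and 9.12 in MEF-ieSC, against 11.31 in TTF, 10.88 in MEF and 12.30 to 13.47 in the native samples. Nr5a1 averaged 9.37 in TTF-ieSC and 8.94 in MEF-ieSC, against 8.28 in TTF and 9.19 in MEF. Dmrt1 lay between 8.99 and 9.21 in the induced cells and the fibroblasts. In the native samples Nr5a1 averaged 13.89 to 15.73 and Dmrt1 10.29 to 11.88. Whether these features can read the transgene transcripts is not given. Amh, the fetal hormone of Sertoli cells, was dim in both induced groups and in mature Sertoli cells.

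Cst9 and Cst12 lie in the same row of cystatin genes on chromosome 2, with 41714 bases between the end of Cst12 and the start of Cst9. Their start regions are shown because both genes were dim in every fibroblast array and bright in every induced array. The start region of Tesc is shown because Tesc had the largest increase of the 10 genes in TTF-ieSC. Each sequence runs from 250 bases before the RefSeq gene start to 50 bases from it on, on the plus strand of GRCm38.p6 (Cst9 at chr2:148834897-148835196, Cst12 at chr2:148789115-148789414, Tesc at chr5:118027493-118027792). Capitals mark matches to short motifs of the 5 factors and to the TATA box.
Cst9: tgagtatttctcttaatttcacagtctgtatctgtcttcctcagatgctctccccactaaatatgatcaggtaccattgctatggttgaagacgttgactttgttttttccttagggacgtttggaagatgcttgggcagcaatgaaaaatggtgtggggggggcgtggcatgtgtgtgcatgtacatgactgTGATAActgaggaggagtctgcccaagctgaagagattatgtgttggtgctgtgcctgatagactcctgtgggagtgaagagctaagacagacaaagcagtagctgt
Cst12: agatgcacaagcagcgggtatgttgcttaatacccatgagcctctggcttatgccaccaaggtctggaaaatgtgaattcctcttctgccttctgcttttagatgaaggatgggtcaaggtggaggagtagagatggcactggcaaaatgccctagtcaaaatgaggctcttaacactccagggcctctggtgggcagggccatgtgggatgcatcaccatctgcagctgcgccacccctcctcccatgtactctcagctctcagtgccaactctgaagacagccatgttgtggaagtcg
Tesc: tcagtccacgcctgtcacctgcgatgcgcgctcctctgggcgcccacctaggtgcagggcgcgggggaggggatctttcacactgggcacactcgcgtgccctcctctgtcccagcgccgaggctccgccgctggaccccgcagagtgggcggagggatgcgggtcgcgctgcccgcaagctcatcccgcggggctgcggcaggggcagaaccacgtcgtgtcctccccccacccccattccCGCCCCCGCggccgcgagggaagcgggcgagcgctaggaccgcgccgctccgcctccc
Both strands were searched, and a share is given of the 32851 start regions of the same length in the table. NR5A1 was searched as AAGGTCA, which 4.7% of all regions held. SOX9 was searched as AACAAT, held by 10.7%. For GATA4 the spelling AGATAA was held by 11.2% and the other spelling, TGATAA, by 9.1%. DMRT1 was searched as ACANTGT, held by 7.5%, WT1 as GCGGGGGCG, held by 2.9%, and the TATA box as TATAAA, held by 13.6%. The Cst9 region held TGATAA on the plus strand, 57 bases before the gene start. The Tesc region held the WT1 motif on the minus strand, starting 8 bases before the gene start. The Cst12 region held none of these spellings. A match describes the letters only, and binding was not measured.

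**Figure D1:**
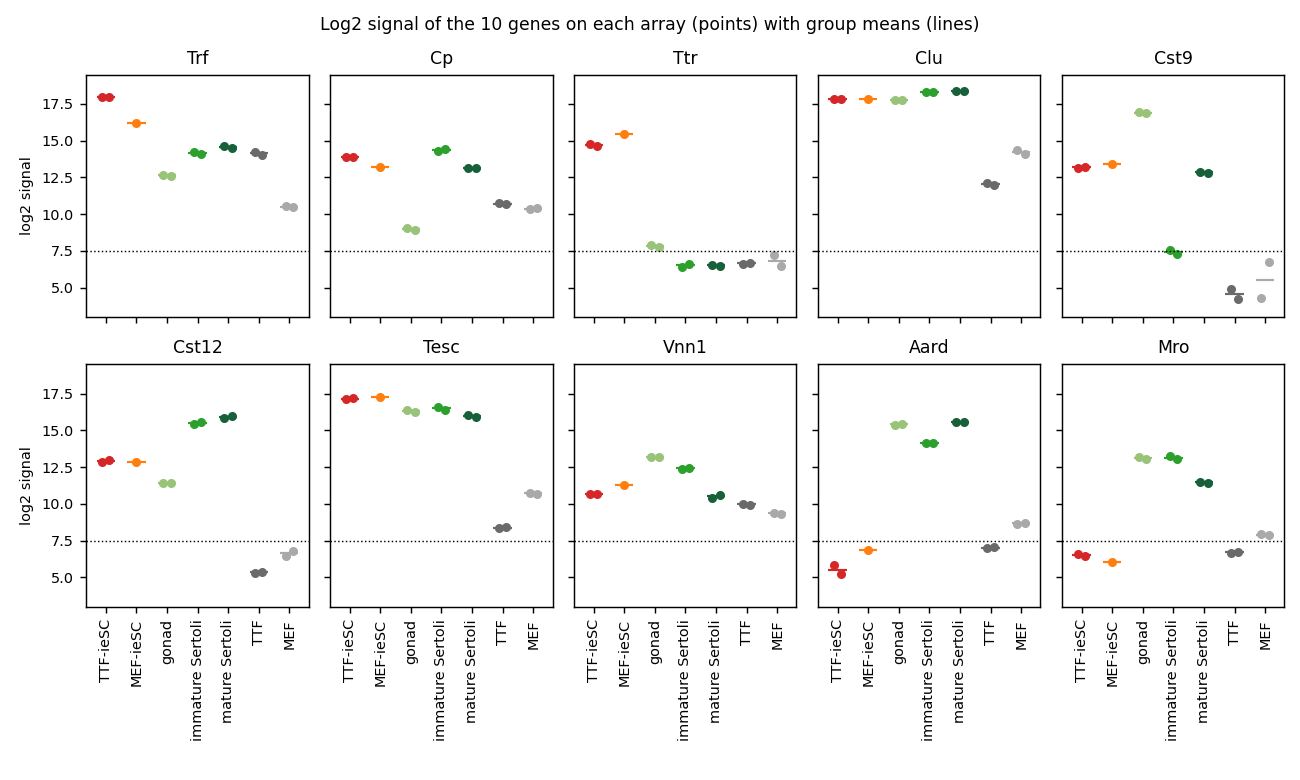
Log2 signal of the 10 genes on each of the 13 arrays (points) with the group means (lines), in the groups TTF-ieSC, MEF-ieSC, gonad, immature Sertoli, mature Sertoli, TTF and MEF, with the array median of 7.488 as a dotted line. Trf and Ttr are highest in the induced cells, Aard and Mro are highest in the 3 native groups, and Clu, Tesc and Cst12 are bright in both induced and native cells.

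Most of the 10 genes were brighter in the induced cells than in the fibroblasts they came from. In TTF-ieSC against TTF, 8 genes were higher, 1 was lower (Aard) and 1 was not called (Mro), with a median difference of 4.82 on the log2 scale. Over all tested genes 39.5% were higher and 35.2% were lower, with a median of 0.0563. In MEF-ieSC against MEF, the same 8 genes were higher and 2 were lower (Aard and Mro), with a median of 4.65. There 34.3% of all tested genes were higher and 33.6% were lower. The genes had been chosen as Sertoli cell products with results on these arrays known, so these counts describe them and do not test the choice.

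**Figure D2:**
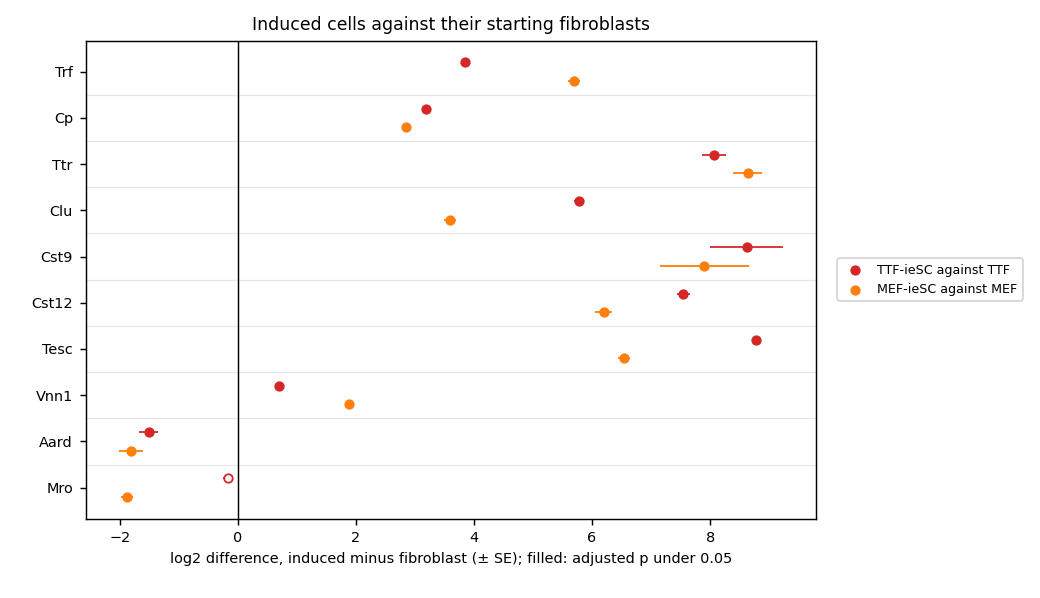
Log2 difference (x axis) of each of the 10 genes in TTF-ieSC minus TTF and in MEF-ieSC minus MEF, with standard errors, filled where the adjusted p is under 0.05. The points of 8 genes lie right of 0 in both inductions and those of Aard lie left of 0 in both.

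Transferrin, which carries iron to cells, was brightest in the induced cells. The brighter Trf feature read 17.99 and 17.97 in TTF-ieSC, 16.21 in MEF-ieSC, 12.69 and 12.60 in gonad, 14.24 and 14.12 in immature Sertoli cells, 14.63 and 14.48 in mature Sertoli cells, 14.21 and 14.05 in TTF, and 10.55 and 10.48 in MEF. Every induced array lay above every native and every fibroblast array, and the arrays of immature Sertoli cells and TTF overlapped. Trf (chr9:103208876-103230286 in GRCm38.p6) was higher by 3.85 ± 0.0786 (SE) in TTF-ieSC than in TTF (adjusted p = 5.55e-10) and by 5.69 ± 0.0963 in MEF-ieSC than in MEF (adjusted p = 4.83e-10). The rise was larger in the MEF induction, by 1.84 on the log2 scale (difference of the rises, TTF minus MEF, -1.84 ± 0.124, adjusted p = 6.12e-06), and TTF-ieSC still ended 1.77 above MEF-ieSC (adjusted p = 2.42e-05). TTF had started 3.62 above MEF. Against the native samples, Trf in TTF-ieSC was higher by 5.34 than in gonad, 3.81 than in immature and 3.43 than in mature Sertoli cells. In MEF-ieSC these differences were 3.56, 2.03 and 1.65, and all 6 were called. The second Trf feature gave the same picture, with a rise of 4.43 from TTF and of 5.45 from MEF. Trf did not separate immature Sertoli cells from TTF, with a difference of 0.05 (adjusted p = 0.590).

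Ceruloplasmin, a copper protein that oxidises iron for loading onto transferrin, was brighter in the induced cells than in fibroblasts. Cp (chr3:19956933-20009750) read 13.89 and 13.88 in TTF-ieSC, 13.23 in MEF-ieSC, 9.08 and 8.96 in gonad, 14.27 and 14.40 in immature Sertoli cells, 13.16 and 13.12 in mature Sertoli cells, 10.73 and 10.67 in TTF, and 10.33 and 10.42 in MEF. The induced arrays lay between those of mature and immature Sertoli cells, and the gonad arrays were the lowest of all. The rises were 3.18 ± 0.0665 in TTF-ieSC (adjusted p = 6.33e-10) and 2.85 ± 0.0815 in MEF-ieSC (adjusted p = 8.52e-09). The 2 Cp features, which the platform pairs with different RefSeq transcripts, went against each other in the comparison with immature Sertoli cells. On the brighter feature Cp was lower in TTF-ieSC by 0.45 (log2 difference -0.45) and in MEF-ieSC by 1.11 (-1.11). On the dimmer feature the differences were 1.30 (adjusted p = 6.28e-07) and 0.72 (adjusted p = 0.000137), both higher in the induced cells. The dimmer feature read 9.58 and 9.67 in TTF-ieSC and 9.05 in MEF-ieSC, against 8.34 and 8.32 in immature Sertoli cells. Both features were higher in the induced cells than in gonad and than in fibroblasts.

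**Figure D3:**
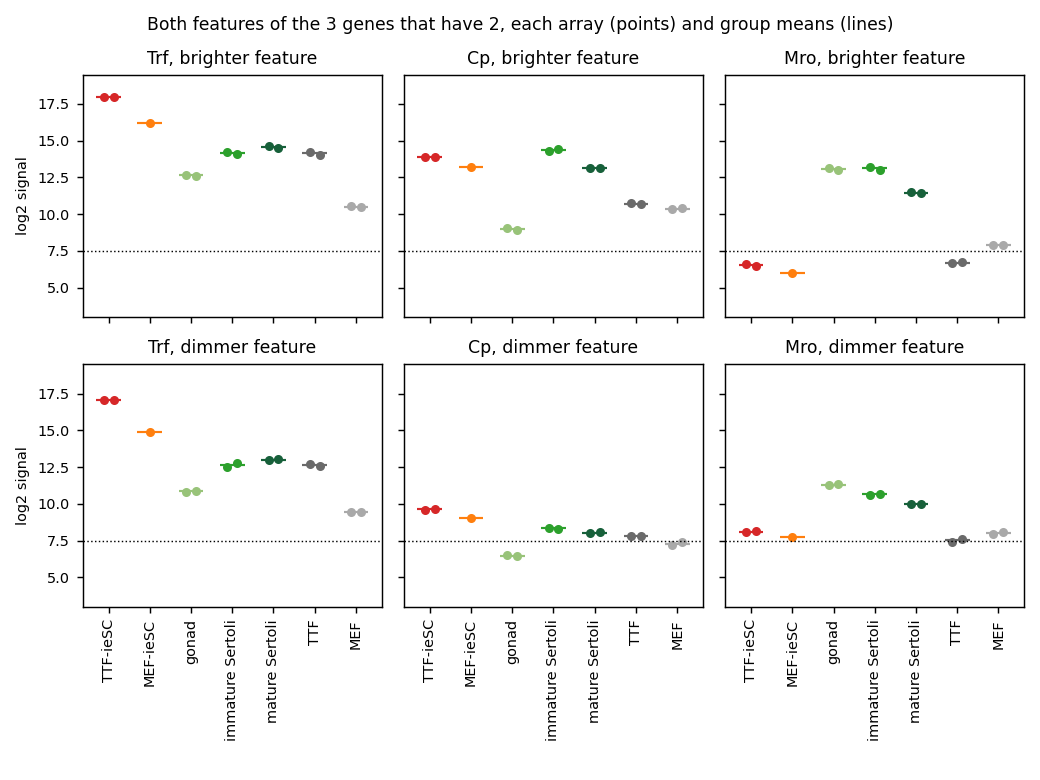
Log2 signal of both features of Trf, Cp and Mro on each array (points) with group means (lines), brighter features on top, and the array median as a dotted line. The order of the groups is alike in the 2 Trf features, whereas for Cp the immature Sertoli arrays are the highest on the brighter feature and lie under the induced arrays on the dimmer one.

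Genes that handle iron and copper around these carriers changed in both directions. Of 21 tested, 7 were higher and 9 were lower in TTF-ieSC than in TTF, with a median of -0.13, and 8 were higher and 7 lower in MEF-ieSC than in MEF. Hephl1, a ferroxidase related to ceruloplasmin, was higher by 2.43 and 4.39 in the TTF and MEF inductions. Its means of 5.40 in TTF and 3.79 in MEF were dim, and those of 7.84 in TTF-ieSC and 8.18 in MEF-ieSC lay near the array median. Tfrc, the receptor that takes up iron-loaded transferrin, was higher by 1.38 (adjusted p = 1.20e-06) and 0.55 (adjusted p = 0.00217). Steap3, an iron reductase of the transferrin cycle, was lower, with differences of -4.86 and -1.16, and so was the ferroxidase Heph, with -3.31 and -2.97. Slc40a1, the iron exporter ferroportin, was higher in the TTF induction by 0.42 and lower in the MEF induction, with -1.63.

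Transthyretin, which carries thyroid hormone and binds the retinol carrier Rbp4 in blood, was bright in the induced cells alone. Ttr, on chromosome 18, read 14.80 and 14.64 in TTF-ieSC, 15.47 in MEF-ieSC, 7.90 and 7.80 in gonad, 6.44 and 6.59 in immature Sertoli cells, 6.55 and 6.47 in mature Sertoli cells, 6.64 and 6.69 in TTF, and 7.23 and 6.45 in MEF. The 3 induced arrays stood far above all others, the gonad arrays lay just above the array median, and the remaining 8 arrays were dim. Ttr was higher by 8.06 ± 0.207 in TTF-ieSC than in TTF (adjusted p = 2.28e-09) and by 8.63 ± 0.254 in MEF-ieSC than in MEF (adjusted p = 1.00e-08). It was also higher than in immature Sertoli cells, by 8.21 in TTF-ieSC and 8.96 in MEF-ieSC, and than in gonad, by 6.87 and 7.62. With each dim value raised to the array median, the 2 rises became 7.23 and 7.98. The native cultured cells and the fibroblasts could not be ordered by Ttr, since none of the steps between MEF, TTF, immature and mature Sertoli cells was called.

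Most of the genes around Ttr were lower in the induced cells. Of 10 tested genes for carriers, transporters and receptors of thyroid hormone and retinol, 1 was higher and 8 were lower in TTF-ieSC than in TTF (median -2.53), and 2 were higher and 6 lower in MEF-ieSC than in MEF. Rbp4, the retinol carrier that Ttr holds in the circulation, read 5.99 and 5.01 in TTF-ieSC and 5.28 in MEF-ieSC, against 11.29 and 11.50 in TTF and 10.44 and 10.54 in MEF. It was dim on all 3 induced arrays and above 10 on every other array. The differences were -5.89 ± 0.254 (adjusted p = 6.66e-08) and -5.22 ± 0.311 (adjusted p = 9.13e-07). Lrp2, an uptake receptor for Ttr, Rbp4 and Clu, was also dim in the induced cells, with differences of -2.57 and -3.30. Dio3, which inactivates thyroid hormone, was lower, with -6.33 and -1.37, and the receptor Thra was higher, by 0.85 and 0.82.

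Ttr, Trf, Cp and Clu are also plasma proteins of the liver, so the other genes of that kind were counted. Of 22 tested, 9 were higher and 7 were lower in TTF-ieSC than in TTF, and 9 were higher and 8 lower in MEF-ieSC than in MEF. Alb, the main plasma protein, was dim in TTF-ieSC and MEF-ieSC, with means of 6.13 and 5.51. The rise of Itih4, a plasma protease inhibitor, was the largest of the list in TTF-ieSC, at 7.26, and it was 7.97 in MEF-ieSC. Itih4 read 15.008 and 15.001 in TTF-ieSC and 15.34 in MEF-ieSC, against 7.85 and 7.64 in TTF and 7.41 and 7.32 in MEF. Ahsg, or fetuin A, was higher by 3.14 and 3.80, and Kng1, or kininogen, was lower, with -7.84 and -4.45.

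Clusterin, an extracellular chaperone and one of the main secreted proteins of Sertoli cells, was among the brightest features of every induced and native array. Clu (chr14:65968483-65981548) read 17.86 and 17.81 in TTF-ieSC, 17.82 in MEF-ieSC, 17.74 and 17.76 in gonad, 18.29 and 18.29 in immature Sertoli cells, 18.40 and 18.40 in mature Sertoli cells, 12.117 and 11.999 in TTF, and 14.36 and 14.09 in MEF. The induced arrays lay beside the gonad, just under the cultured Sertoli cells and far above the fibroblasts. Clu was higher by 5.78 ± 0.0864 in TTF-ieSC than in TTF (adjusted p = 9.62e-11) and by 3.60 ± 0.106 in MEF-ieSC than in MEF (adjusted p = 1.02e-08). The larger rise came from the lower start, and the 2 induced groups ended 0.01 apart (adjusted p = 0.964). Against gonad the differences were 0.08 in TTF-ieSC (adjusted p = 0.414) and 0.07 in MEF-ieSC (adjusted p = 0.573). Against immature Sertoli cells they were -0.46 and -0.47, both called. Signals this bright lay above 99.4% or more of all features, close to the array maximum, where differences can be compressed.

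Receptors and partners of Clu were split. Of 8 tested, 3 were higher and 3 lower in TTF-ieSC than in TTF, and 3 were higher and 4 lower in MEF-ieSC than in MEF. The lipoprotein receptors Sorl1 and Scarb1 were higher in both inductions, by 3.09 and 2.77 for Sorl1 and by 2.30 and 1.37 for Scarb1. Lrp1, a large endocytic receptor, was lower, with -4.20 and -3.44.

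Cst9, or testatin, belongs to a subgroup of cystatins found in reproductive tissue, and its signal depended on the native sample. Cst9 (chr2:148835147-148838737) read 13.16 and 13.20 in TTF-ieSC, 13.42 in MEF-ieSC, 16.98 and 16.85 in gonad, 7.55 and 7.29 in immature Sertoli cells, 12.86 and 12.83 in mature Sertoli cells, 4.88 and 4.25 in TTF, and 4.33 and 6.71 in MEF. The gonad arrays were the brightest, the induced and mature arrays lay together, and the immature arrays lay at the array median. Cst9 was higher by 8.61 ± 0.615 in TTF-ieSC than in TTF (adjusted p = 2.04e-06) and by 7.90 ± 0.754 in MEF-ieSC than in MEF (adjusted p = 2.07e-05). With dim values raised to the array median these rises became 5.69 and 5.94. The induced cells were lower than gonad, with -3.74 in TTF-ieSC and -3.49 in MEF-ieSC, and higher than immature Sertoli cells, by 5.76 and 6.00. Against mature Sertoli cells the differences of 0.33 (adjusted p = 0.633) and 0.58 (adjusted p = 0.505) were not called, although the arrays did not overlap. Both were called with dim values raised to the array median (adjusted p = 0.000144 and 1.66e-05) and in fits of only the groups compared (adjusted p = 0.00335 and 0.00139). The standard errors of Cst9 were the largest of the 10 genes, and its 2 MEF arrays lay far apart.

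Cst12, of the same subgroup, had another order. Cst12 (chr2:148789365-148793432) read 12.83 and 12.95 in TTF-ieSC, 12.82 in MEF-ieSC, 11.41 and 11.44 in gonad, 15.45 and 15.57 in immature Sertoli cells, 15.84 and 15.95 in mature Sertoli cells, 5.32 and 5.37 in TTF, and 6.44 and 6.81 in MEF. The cultured Sertoli cells were the brightest, the induced cells lay between them and the gonad, and all fibroblast arrays were dim. The rises were 7.55 ± 0.114 in TTF-ieSC (adjusted p = 1.04e-10) and 6.19 ± 0.140 in MEF-ieSC (adjusted p = 2.13e-09), or 5.40 and 5.33 with dim values raised to the array median. In contrast to Cst9, the induced cells were higher than gonad, by 1.46 and 1.40, and lower than immature Sertoli cells, with -2.62 and -2.69.

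**Figure D4:**
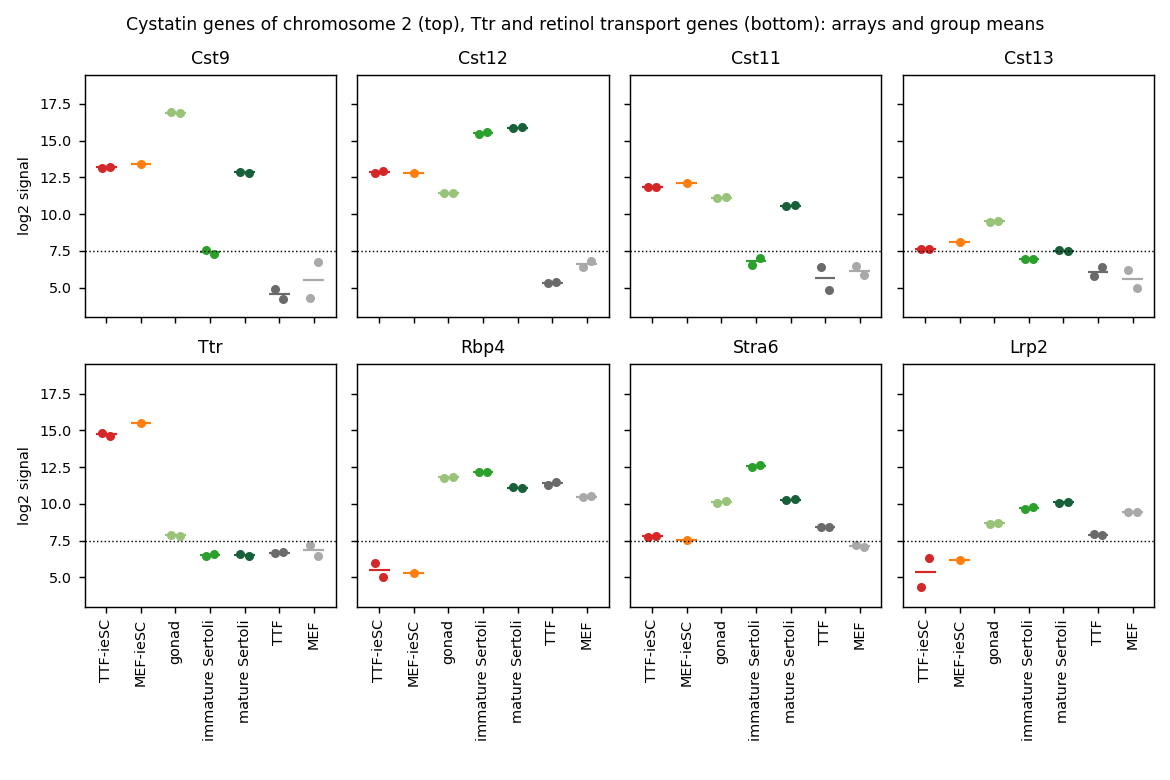
Log2 signal on each array (points) and group means (lines) of 4 cystatin genes of the same region of chromosome 2 (top) and of Ttr beside the retinol transport genes Rbp4, Stra6 and Lrp2 (bottom), with the array median as a dotted line. Cst9 and Cst11 are dim or at the median in immature Sertoli cells and bright in mature ones, and Rbp4 is dim where Ttr is bright.

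Other cystatins of the same chromosome region were read beside them. Cst11, which lies on the other side of Cst12, read 11.84 and 11.86 in TTF-ieSC, 12.09 in MEF-ieSC, 11.09 and 11.16 in gonad, 6.54 and 7.05 in immature Sertoli cells, 10.57 and 10.60 in mature Sertoli cells, 6.40 and 4.85 in TTF, and 6.45 and 5.86 in MEF. Like Cst9, Cst11 was bright in the induced cells, the gonad and the mature cells and dim in the immature cells. Its rises were 6.22 in TTF-ieSC (adjusted p = 1.67e-06) and 5.93 in MEF-ieSC (adjusted p = 1.32e-05). Cst13, between Cst12 and Cst9, was higher by 1.53 and 2.52. Cst3, the cystatin made by most tissues, was lower in the TTF induction, with -0.81, and higher in the MEF induction, by 0.24. These genes are related in sequence, and how far a feature of one reads transcripts of another was not tested. Of 5 other cystatins tested, 3 were higher and 1 lower in TTF-ieSC than in TTF, and all 5 were higher in MEF-ieSC than in MEF.

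Lysosomal proteases, among them the classical cystatin targets, changed in both directions. Of 13 tested, 3 were higher and 9 lower in TTF-ieSC than in TTF (median -0.85), and 3 were higher and 6 lower in MEF-ieSC than in MEF (median -0.09). Ctsk, a collagen-degrading protease, was lower in both, with -8.86 and -6.00. Ctsc was higher in TTF-ieSC, by 3.21, and lower in MEF-ieSC, with -2.05. Ctsl, an abundant secreted protease of Sertoli cells, differed by -0.53 (adjusted p = 0.000234) in the TTF induction and by 0.01 (adjusted p = 0.927) in the MEF induction.

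Tescalcin, a calcium-binding protein related to calcineurin B, was brighter in the induced cells than in every native sample and far brighter than in the fibroblasts. Tesc (chr5:118027743-118061878) read 17.13 and 17.17 in TTF-ieSC, 17.24 in MEF-ieSC, 16.37 and 16.24 in gonad, 16.59 and 16.39 in immature Sertoli cells, 16.03 and 15.93 in mature Sertoli cells, 8.35 and 8.38 in TTF, and 10.71 and 10.69 in MEF. The 3 induced arrays lay above the 6 native arrays, and the fibroblast arrays were the lowest. Tesc was higher by 8.78 ± 0.0793 in TTF-ieSC than in TTF (adjusted p = 1.14e-11) and by 6.54 ± 0.0972 in MEF-ieSC than in MEF (adjusted p = 2.52e-10). Because neither fibroblast mean was dim, these differences did not move when dim values were raised. The induced groups ended 0.09 apart (TTF-ieSC minus MEF-ieSC -0.09, adjusted p = 0.622). Tesc was higher by 0.66 in TTF-ieSC and 0.75 in MEF-ieSC than in immature Sertoli cells, by 1.17 and 1.26 than in mature Sertoli cells and by 0.85 and 0.93 than in gonad, and all 6 were called.

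Partners and relatives of Tesc changed in both directions. Of 9 tested, 4 were higher and 3 lower in TTF-ieSC than in TTF, and 2 were higher and 2 lower in MEF-ieSC than in MEF. The sodium-proton exchanger Slc9a3 was higher by 2.25 and 2.34. Chp1, a relative of Tesc, was lower in the TTF induction, with -0.66, and differed by 0.18 (adjusted p = 0.102) in the MEF induction. Chp2, another relative, was higher by 0.49 and 2.04 yet dim on every induced array.

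Vanin 1, a membrane pantetheinase that frees pantothenate for coenzyme A, rose by less than the genes above. Vnn1 (chr10:23894688-23905344) read 10.67 and 10.66 in TTF-ieSC, 11.25 in MEF-ieSC, 13.15 and 13.17 in gonad, 12.38 and 12.45 in immature Sertoli cells, 10.43 and 10.57 in mature Sertoli cells, 10.00 and 9.92 in TTF, and 9.40 and 9.33 in MEF. No 2 groups overlapped, and the induced cells lay between the native cells of the 2 cultured ages. The rises were 0.70 ± 0.0642 in TTF-ieSC (adjusted p = 1.12e-05) and 1.89 ± 0.0786 in MEF-ieSC (adjusted p = 8.84e-08). Vnn1 was lower in the induced cells than in gonad, with -2.50 and -1.91, and than in immature Sertoli cells, with -1.75 and -1.16. Against mature Sertoli cells it was higher by 0.75 in MEF-ieSC, and by 0.16 in TTF-ieSC (adjusted p = 0.0432), a call lost under several settings. Without mature Sertoli replicate 1 the difference was 0.09 (adjusted p = 0.281). Leaving out TTF-ieSC replicate 1 or 2 (adjusted p = 0.129 and 0.113) or either gonad array (adjusted p = 0.0626) also ended the call, as did a fit with no filter (adjusted p = 0.0574) and one of only the groups compared (adjusted p = 0.0854). A list of 8 tested genes held those of coenzyme A synthesis and Btd, the gene of biotinidase. Of these, 6 were higher and 1 lower in TTF-ieSC than in TTF, and 4 were higher and 2 lower in MEF-ieSC than in MEF. The kinase Pank1 was higher by 1.90 and 1.01 and the synthetase Ppcs by 1.82 and 1.86.

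Aard, a small protein rich in alanine and arginine that marks Sertoli cells, was dim in the induced cells and in TTF. Aard (chr15:52040107-52045722) read 5.83 and 5.20 in TTF-ieSC, 6.85 in MEF-ieSC, 15.38 and 15.42 in gonad, 14.11 and 14.14 in immature Sertoli cells, 15.55 and 15.54 in mature Sertoli cells, 6.97 and 7.08 in TTF, and 8.60 and 8.72 in MEF. The native arrays were all bright, the MEF arrays lay above the array median, and the induced arrays lay under those of their own fibroblasts. Against the fibroblasts Aard was lower, with -1.51 ± 0.166 in TTF-ieSC (adjusted p = 3.81e-05) and -1.81 ± 0.203 in MEF-ieSC (adjusted p = 5.94e-05). With dim values raised to the array median the difference in the MEF induction was -1.17, and in the TTF induction nothing was left, since both groups were dim. Against immature Sertoli cells the differences were -8.61 and -7.28, and against gonad -9.89 and -8.55.

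Maestro, a protein first described in the developing mouse testis, was far lower in the induced than in the native samples, as was Aard. Mro, on chromosome 18, read 6.58 and 6.47 in TTF-ieSC, 6.02 in MEF-ieSC, 13.16 and 13.04 in gonad, 13.23 and 13.02 in immature Sertoli cells, 11.50 and 11.42 in mature Sertoli cells, 6.65 and 6.73 in TTF, and 7.91 and 7.89 in MEF. On this feature both induced groups and TTF were dim, while every native array was bright. Against TTF the difference in TTF-ieSC was -0.16 ± 0.0835 (adjusted p = 0.109), and against MEF Mro was lower in MEF-ieSC, with -1.88 ± 0.102 (adjusted p = 4.98e-07). Raising dim values to the array median left -0.41 in the MEF induction and no difference in the TTF induction, where both groups were dim. The second Mro feature read 8.05 and 8.13 in TTF-ieSC, 7.71 in MEF-ieSC, 11.28 and 11.31 in gonad, 10.60 and 10.66 in immature Sertoli cells, 10.02 and 9.995 in mature Sertoli cells, 7.40 and 7.63 in TTF, and 7.94 and 8.09 in MEF. On it the induced arrays lay just above the array median, and 1 TTF array was dim. This feature gave 0.58 in the TTF induction (adjusted p = 0.000273), higher in TTF-ieSC, and -0.31 in the MEF induction (adjusted p = 0.0279). On both features Mro was far lower in the induced cells than in immature Sertoli cells, with -6.60 in TTF-ieSC and -7.11 in MEF-ieSC on the brighter feature and -2.54 and -2.92 on the dimmer one.

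Set against the native samples, Trf, Ttr and Tesc were higher in both kinds of induced cells in each comparison, and Aard and Mro were lower in each. The counts of genes called, 8 to 10 of the 10, lay beside large shares of all genes called in the same comparisons. Against immature Sertoli cells, 4 genes were higher (Trf, Ttr, Cst9 and Tesc) and 6 were lower (Clu, Cst12, Cp, Aard, Mro and Vnn1) in TTF-ieSC. In MEF-ieSC, tested against the same immature arrays, the counts were also 4 and 6. Over all genes, 37.8% were higher and 39.0% were lower in TTF-ieSC, and 34.4% were higher and 36.2% lower in MEF-ieSC. Against gonad, 5 were higher (Trf, Ttr, Cst12, Cp and Tesc) and 4 were lower in TTF-ieSC, with Clu not called. The counts were the same in MEF-ieSC, tested against the same gonad arrays. The shares of all genes were 38.2% higher and 41.5% lower in TTF-ieSC and 35.9% and 39.1% in MEF-ieSC. Against mature Sertoli cells 5 were higher and 4 lower in TTF-ieSC (all genes 43.0% and 36.6%), and 4 were higher and 4 lower in MEF-ieSC (40.4% and 34.5%). The differences ranged in size from 0.07 for Clu in MEF-ieSC against gonad to -10.03 for Aard in TTF-ieSC against mature cells.

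**Figure D5:**
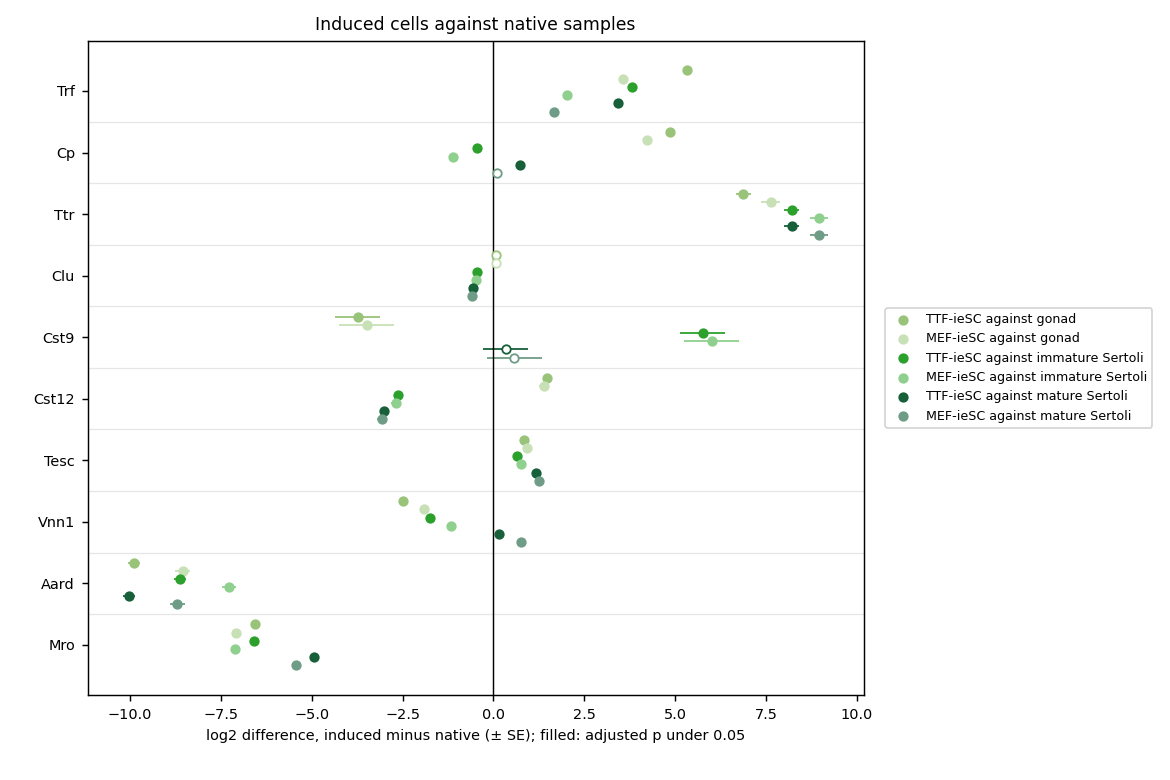
Log2 difference (x axis) of each of the 10 genes in TTF-ieSC and MEF-ieSC minus gonad, immature and mature Sertoli cells, with standard errors, filled where the adjusted p is under 0.05. Trf and Ttr lie right of 0 in all 6 comparisons, Aard and Mro lie left of 0 in all 6, and Cst9 and Cst12 lie on opposite sides in the comparisons with gonad and immature cells.

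Other lists gave the same mixed reading. Of 29 other fetal Sertoli markers tested, 21 were higher and 3 lower in TTF-ieSC than in TTF (median 1.28), and 18 were higher and 5 lower in MEF-ieSC than in MEF. In TTF-ieSC against immature Sertoli cells, 11 were higher and 16 were lower. Of 31 other secreted proteins of Sertoli cells, 8 were higher and 16 lower in TTF-ieSC than in TTF, 9 were higher and 15 lower in MEF-ieSC than in MEF, and 5 were higher and 22 lower in TTF-ieSC than in immature Sertoli cells. Ptgds, the prostaglandin D synthase of fetal Sertoli cells, was higher by 11.23 and 9.45 in the TTF and MEF inductions and Dhh by 6.03 and 7.25. The binding proteins of insulin-like growth factors Igfbp3 and Igfbp4 were lower, with -9.04 and -8.11 in TTF-ieSC. Among the fetal markers Sox9 was lower, with -1.52 and -1.76 in the TTF and MEF inductions. Cbln4 was lower too, with -1.30 and -0.77, and its means were dim in the induced cells and the fibroblasts. Some of these genes are made by fibroblasts too. The list of fetal markers includes the genes of all 5 transgenes. It also shares Amh, Dhh, Ptgds and other genes with the list of secreted proteins.

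The native samples hold other cells, and their markers moved with several of these differences. The mean signal of 15 germ cell markers was 6.97 and 7.15 in TTF-ieSC and 6.86 in MEF-ieSC, against 11.78 and 11.76 in gonad, 10.25 and 10.20 in immature and 9.76 and 9.91 in mature Sertoli cells. That of 8 Leydig cell markers was 7.64 to 8.02 in the induced arrays, against 14.50 and 14.51 in gonad, 11.51 and 11.57 in immature and 11.15 and 11.13 in mature Sertoli cells. That of 10 peritubular and smooth muscle markers was 10.01 to 10.48 in the induced arrays, against 14.28 and 14.21 in immature and 14.55 and 14.53 in mature Sertoli cells. This last list averaged 11.51 and 11.40 in gonad, 12.66 and 12.59 in TTF and 14.43 and 14.47 in MEF, so it was as bright in MEF as in cultured Sertoli cells. The means of all 3 lists were higher in cultured native cells than in induced cells, as were Aard and Mro. Single genes went the other way, such as Smtn at 16.56 in TTF-ieSC against 14.45 in immature Sertoli cells. In the gonad, 9 erythroid markers averaged 13.32 and 13.36, against 7.23 and 7.36 in immature Sertoli cells. The part of these cells in the differences of the 10 genes was not tested, and in such mixed samples fewer cells of a type and less RNA per cell cannot be told apart. Fibroblast markers, 15 in all, averaged 8.93 to 9.05 in the induced arrays, against 12.56 to 13.36 in the native arrays. They averaged 15.39 and 15.45 in TTF and 15.18 and 15.19 in MEF. On each induced array 7 of the 15 lay above the array median, and on every other array all 15 did. The fall was not uniform: Dcn averaged 17.06 in TTF-ieSC and 16.13 in MEF-ieSC, against 16.49 in TTF and 15.08 in MEF. Col1a1 averaged 16.13 in TTF-ieSC and 16.88 in MEF-ieSC, against 17.32 in TTF and 17.38 in MEF.

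Among the native samples, age and culture changed together, so the 2 cannot be told apart. In mature against immature Sertoli cells 4 of the 10 genes were higher (Trf, Cst9, Cst12 and Aard) and 4 were lower (Cp, Tesc, Mro and Vnn1). Over all genes 28.9% were higher and 39.6% were lower. Cst9 had the largest difference, 5.43 ± 0.615 (adjusted p = 7.19e-05), followed by Vnn1 with -1.91 ± 0.0642 (adjusted p = 4.24e-08) and Mro with -1.67 ± 0.0835 (adjusted p = 4.34e-07). Cst12 was higher by 0.38, a call lost without immature replicate 1 (adjusted p = 0.0833) or mature replicate 2 (adjusted p = 0.0871). Of the 15 germ cell markers 3 were higher and 7 lower in mature than in immature cells. In immature Sertoli cells against gonad, 4 were higher (Trf, Clu, Cst12 and Cp) and 4 were lower (Cst9, Ttr, Aard and Vnn1), beside 32.6% and 37.9% of all genes. The extremes were Cst9 with -9.50 and Cp with 5.32. In the same comparison, all 8 Leydig cell markers and all 9 erythroid markers were lower and 9 of 10 peritubular markers were higher. In mature Sertoli cells against gonad 4 were higher and 5 lower, with 35.6% and 44.3% of all genes and a median over all genes of -0.11.

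Against fibroblasts, most of the 10 genes were higher in the native samples. In immature Sertoli cells 9 were higher than in MEF (all genes 36.2%) and 8 were higher than in TTF (41.0%), and in mature Sertoli cells 9 were higher than in TTF (36.6%). In these 3 comparisons limma called 0 of the 10 lower, and 0 were lower at an unadjusted p under 0.05, beside 35.6%, 37.1% and 40.4% of all genes called lower. Ttr was not called in any of the 3, and Trf was not called in immature Sertoli cells against TTF. Cst9 was higher by 1.90 in immature Sertoli cells than in MEF, a call lost without either immature array (adjusted p = 0.0876 and 0.0575), and with dim values raised the difference was 0.03 against either fibroblast. In gonad against MEF 9 were higher (41.1%) and 1, Cp, was lower (36.8%), with -1.36.

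Part of the 10 genes differed between the 2 inductions. With 1 MEF-ieSC array, the starting cell cannot be told apart from the culture or the array. The test of the difference between the 2 inductions called 7 of the 10 genes, with a positive value (TTF induction minus MEF induction) for 5 (Clu, Cst12, Cp, Tesc and Mro) and a negative one for 2 (Trf and Vnn1), beside 28.9% and 25.2% of all genes. Clu, Cst12, Cp and Tesc rose more in the TTF induction and Trf and Vnn1 in the MEF induction, while Mro fell in the MEF induction and was not called in the TTF induction. TTF-ieSC and MEF-ieSC differed in 5 of the 10, with Trf, Cp and Mro higher in TTF-ieSC and Aard and Vnn1 lower, beside 7.53% and 6.76% of all genes. No gene of these 5 was called in a fit of those 2 groups by themselves, which has a single residual degree of freedom, with adjusted p from 0.0548 for Trf to 0.148 for Aard. The Mro call was also lost without TTF-ieSC replicate 1 (adjusted p = 0.0578). Raising dim values to the array median ended the Aard and Mro calls, since both induced groups were dim, and Cst9 (-0.24, adjusted p = 0.0202) and Ttr (-0.75, adjusted p = 0.000177) were called lower in TTF-ieSC. The fibroblasts differed in 8, with 3 higher (Trf, Cp and Vnn1) and 5 lower (Clu, Cst12, Aard, Tesc and Mro) in TTF than in MEF, beside 31.1% and 35.5% of all genes. Clu, Tesc and Cst12 differed between the fibroblasts by -2.17, -2.33 and -1.29. Between the induced groups they differed by 0.01, -0.09 and 0.07 (adjusted p = 0.964, 0.622 and 0.814). Cst12 was dim in both fibroblasts, and with dim values raised to the array median its difference between them was 0. Trf differed by 3.62 between the fibroblasts and by 1.77 between the induced groups. Array position was checked too. The median difference of the features around each of the 13 features, taking the order of the table as the array grid, ran from -0.23 to 0.19 in MEF-ieSC minus TTF-ieSC, from -0.33 to 0.41 in TTF-ieSC minus TTF and from -0.22 to 0.59 in MEF-ieSC minus MEF.

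Of the 60 steps between neighbouring groups in the order of means, 6 for each gene, 19 were not called. In Trf the order was TTF-ieSC, MEF-ieSC, mature Sertoli, immature Sertoli, TTF, gonad and MEF, and the one step not called was that of immature Sertoli and TTF. In Clu the steps of mature and immature Sertoli, of the 2 induced groups and of MEF-ieSC and gonad were not called, and in Cst9 those of the 2 induced groups, of TTF-ieSC and mature Sertoli and of the 2 fibroblasts. In Aard the uncalled steps were mature Sertoli and gonad, and TTF and MEF-ieSC. In Vnn1 every step was called, in the order gonad, immature Sertoli, MEF-ieSC, TTF-ieSC, mature Sertoli, TTF and MEF.

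The 7 group means also showed which genes run alike. Among the 10, the Pearson correlation over the 7 means was 0.977 for Clu and Tesc, 0.960 for Aard and Mro and 0.945 for Clu and Cst12, but 0.571 for Cst9 and Cst12. Ttr ran against Aard at -0.629. The other tested genes whose means spanned at least 2 were then ranked, with clone and predicted names left out. Closest to Ttr were Phf21b (0.999), Atp6v0a4, a proton pump subunit (0.998), and Srpk3, a kinase (0.995). The closest to Trf were Prr15 (0.982), Myzap (0.975) and Rcvrn (0.964), and those to Aard were Il10ra (0.991), the meiosis gene Syce1 (0.990) and the steroid-making gene Star (0.986). For Mro they were Wfdc10 (0.992), the meiosis gene Dmc1 (0.991) and Asb9 (0.989). For Tesc they were Myo5b (0.993), Atp1b2 (0.993) and Ppp1r16b (0.992), for Clu Cgn, a tight junction protein (0.989), Gstm6 (0.985) and Rhpn2 (0.984), and for Cst12 the folate receptor Folr1 (0.989), Cadm1 (0.986) and Reep2 (0.983). For Cst9 they were Spo11 (0.981), Art5 (0.968) and B3gnt8 (0.965), for Cp Acsl4 (0.994), Trim72 (0.980) and Scd4 (0.976), and for Vnn1 Rasd2 (0.984), Taf7 (0.980) and Pes1 (0.973). With 7 points and the highest values picked from so many genes, such values are descriptions of these group means.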

How the data were processed

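RNA of 13 samples was labelled with Cy3 and read on Agilent arrays with 1 sample each, per the labels. The authors deposited 1 table of signals for 62976 features, already brought to 1 distribution on every array. The values were taken as log2, a base inferred from their range and the tool that the submitters named. The submitters' processing notes name limma without saying for which step. How features were extracted and background corrected is not given in the sources used here. Arrays have no read depth, and precision is limited by their number.

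Names came from the platform annotation and a RefSeq gene table of GRCm38.p6: 31465 had 1 symbol, 0 had several and 31511 had none. The accession matched for 29036 of them, the symbol for 2075 and an older name for 349, while 5 kept their given name. Where a gene had several features, the one with the highest mean stood for it. The 16658 genes that exceeded the median on 2 or more arrays were fitted in R 4.3.3 with limma 3.58.1 (lmFit, eBayes), on 7 group means, with 6 residual and 2.18 prior degrees of freedom. The 18 comparisons were two-sided contrasts of that fit, called at a Benjamini-Hochberg adjusted p under 0.05, and errors beside differences are its standard errors. The script was tested on simulated data.

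The 10 genes, the gene lists and the comparisons were chosen with earlier results of these data known. Lists are given by counts and medians, with no test of the list. Beside the 10 genes and a few fixed partners, the text names from each list genes among the 2 largest called rises and the 2 largest called falls in TTF-ieSC against TTF. For each of the 10 genes it also names the 3 tested genes with the highest Pearson correlation of the 7 group means. Clone and predicted names were left out of that ranking. Lists in other comparisons are given by counts alone. The markers Nr5a1, Gata4, Dmrt1, Amh, Cldn11, Alb and Stra6 come from those lists and are named outside that rule. Counts over a list cover its members measured here, and some list genes are not reported here.

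Sequences come from a RefSeq table of start regions in GRCm38.p6. Ttr and Mro, on chromosome 18, were left out of this step. Of the rest, start regions were found for 4 genes (Cst9, Cst12, Tesc and Cp) and not for Trf, Clu, Aard and Vnn1. Alternatives were array weights, a variance trend with robust fitting, the other feature of a gene by itself, the mean of its features, quantile normalization, scaling to a common 75th percentile, a filter at that percentile, no filter, only the groups compared, dim values raised to the array median, a minimum log2 difference of 1, each array left out in turn and, added after seeing the data, the 2 runs of title numbers as a block.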

Additional observations from a re-analysis of the deposited data

Results flagged for a closer look

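For 7 of the 10 genes the change from fibroblast to induced cell differed between the 2 starting cells, by the test of the difference itself (TTF-ieSC minus TTF, less MEF-ieSC minus MEF, limma, adjusted over all tested genes). Over all tested genes 28.9% had a higher and 25.2% a lower difference. Clu (2.18 ± 0.137), Tesc (2.24 ± 0.125) and Cst12 (1.35 ± 0.181) rose more from TTF, in which each had started lower than in MEF, and each ended within 0.09 of the same level in TTF-ieSC and MEF-ieSC. Cst12 was dim on every fibroblast array. Its difference was 0.07 once dim values were raised to the array median (adjusted p = 0.601), and the 2 fibroblasts then did not differ. Cp also rose more from TTF, by 0.33 ± 0.105 (adjusted p = 0.0284). On its dimmer feature the difference was 0.05 (adjusted p = 0.762), and the call was lost without either TTF-ieSC array, without TTF replicate 2 or without MEF replicate 2.

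Trf (-1.84 ± 0.124) and Vnn1 (-1.19 ± 0.102) rose more from MEF. The second Trf feature also rose more from MEF, by a smaller margin. The brighter Trf feature lay above 99.6% of all features in TTF-ieSC, where differences can be compressed. For Mro the value was 1.72 ± 0.132, which compares no called change in the TTF induction with a fall in the MEF induction. It was 0.41 once dim values were raised (adjusted p = 0.0126). The second Mro feature gave 0.88 (adjusted p = 0.000736). The MEF side rests on a single MEF-ieSC array. Cst9 (0.71, adjusted p = 0.568), Ttr (-0.57, adjusted p = 0.173) and Aard (0.30, adjusted p = 0.361) were not called with all arrays and values as deposited. Once dim values were raised, Aard (1.17, adjusted p = 1.32e-06) and Ttr (-0.75, adjusted p = 0.000119) were called. Without MEF replicate 1, Cst9 (1.91, adjusted p = 0.00238) and Ttr (-0.96, adjusted p = 0.00108) were called, and without TTF-ieSC replicate 2, Aard (0.62, adjusted p = 0.00316). The groups hold 1 or 2 arrays, too few to look for an array that stands apart within a group.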

How the results depend on the processing

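Over the alternatives, 4209 of 4314 values of the 10 genes kept their direction and their side of the threshold. Of the others 26 became called, 59 lost their call and 20 changed direction, and the cause was not tested except where the setting itself gives it. Part of the 4209 was fixed in advance. All arrays already shared 1 distribution, so quantile normalization and the common 75th percentile each left all 180 values the same. Leaving out 1 array gave 2247 of the 4209, and an array outside a comparison cannot move its difference. With dim values raised to the array median, 0 genes were lower in TTF-ieSC against TTF in place of 1, and 4 in place of 2 had a lower difference between the inductions. With a log2 difference of 1 or more required, 1 gene was higher and 1 lower in TTF-ieSC against MEF-ieSC in place of 3 and 2, 1 in place of 3 was higher in TTF against MEF, 3 in place of 5 were higher in TTF-ieSC against mature Sertoli cells, 2 in place of 4 were higher in mature against immature Sertoli cells, and 33 in place of 19 neighbouring steps did not pass. With only the groups compared, 0 were higher and 0 lower in TTF-ieSC against MEF-ieSC.

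With each array left out in turn, 8 genes stayed higher in each induction in every fit. The number lower in immature Sertoli cells against MEF ran from 0 to 1, the 1 being Ttr without MEF replicate 2 (-0.71). The differences between the inductions called higher ran from 4 to 6 and lower from 2 to 3, and the steps not passed from 17 to 21.

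The direction changed in the following. With the mean of a gene's features, Mro differed by 0.21 in TTF-ieSC against TTF and by -0.32 in immature Sertoli cells against gonad, and Cp by 0.42 in TTF-ieSC against immature Sertoli cells. With the other feature, Mro gave 0.58 and -0.66 in those comparisons, Cp 1.30 in TTF-ieSC and 0.72 in MEF-ieSC against immature Sertoli cells, and Trf -0.015 in immature Sertoli cells against TTF. The difference between the inductions for Cst9 was -0.24 with dim values raised. With 1 array left out it ran from -0.48 to 1.91 for Cst9 and from -0.011 to 0.62 for Aard. The rest had no call in the fit of all arrays and changed sign with 1 array left out. Their ranges were -2.15 to 0.24 for Cst9 and -0.57 to 0.21 for Ttr in TTF against MEF, -0.71 to 0.066 for Ttr in immature Sertoli cells against MEF, -0.017 to 0.040 for Clu in TTF-ieSC against MEF-ieSC, -0.080 to 0.133 for Mro in immature Sertoli cells against gonad, -0.029 to 0.126 for Trf in immature Sertoli cells against TTF, and -0.052 to 0.074 for Ctsl in MEF-ieSC against MEF. The sample titles are numbered in 2 runs, and what a run stands for is not given. A fit with the runs as a replicate block, chosen after seeing the data, left 5 residual degrees of freedom. It moved the number of all genes called by at most 1.26 times. Among the 10 genes it added 1 call and ended 0. It called Tesc in immature Sertoli cells against gonad (0.19, adjusted p = 0.0441) and turned 2 uncalled values, Clu in TTF-ieSC against MEF-ieSC (-0.025) and Ctsl in MEF-ieSC against MEF (-0.040). Arrays of the same run deviated together with a correlation over all tested genes of 0.013 to 0.184, over 0.1 in 4 of 15 pairs of groups, so the numbers were not taken to pair the arrays. The missing background limits every difference against a dim value.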

Other observations

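Proliferation markers were read beside the 10 genes. Of 8 tested, 8 were higher in TTF-ieSC than in TTF, with a median of 2.70, and 6 were higher and 1 lower in MEF-ieSC than in MEF, with a median of 0.47. The mean signal of 9 such genes was 12.74 and 12.98 in TTF-ieSC and 12.89 in MEF-ieSC, against 10.61 and 10.69 in TTF and 12.52 and 12.42 in MEF.

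Of 11 macrophage markers, 9 were lower in TTF-ieSC than in immature Sertoli cells and the other 2 were not called. Of 10 endothelial markers, 4 were higher and 5 lower in the same comparison. Vnn3, a relative of Vnn1, was at most 7.28 on any array, under the array median of 7.488.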
